A study of Mus musculus with 18 samples.

Results

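The genes Il1r2, Prss46, Epb41l4b, Plcb4, Fgl2, Lpar4, Tub and Ckm, which are 8 of the 18909 genes in the deposited table, were followed across 18 RNA libraries of cultured mouse tumour cells. They had been picked by symbol as genes outside the contractile apparatus that were near 0 in E0771 controls and high with MRTFA in E0771. Their levels in those 6 libraries are therefore a description, and no test is given for them. Ckm is the creatine kinase of skeletal and cardiac muscle, so the wording non-contractile holds for all of them but the wording non-muscle does not hold for Ckm.

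The groups, each of 3 libraries, were E0771 MRTFA, E0771 MRTFB and E0771 control, and B16F10 MRTFA, B16F10 MRTFB and B16F10 control. E0771 is a mammary tumour line and B16F10 a melanoma line, both given as C57BL6, and every group carried a pRetrox vector, which was empty in the controls. All groups, controls included, received doxycycline at 500 ng/mL for 48 h to induce the transgene. The labels do not say whether each line was a clone or a pool of transduced cells, nor whether the replicates were separate cultures, so the p-values measure only the spread between these libraries.

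MRTFA and MRTFB are coactivators that bind monomeric actin. When actin polymerises they enter the nucleus and act through serum response factor, which binds the CArG box, on genes of the cytoskeleton and of muscle. The 8 genes have diverse roles. Il1r2 encodes a decoy receptor that takes up interleukin-1 without signalling. Lpar4 encodes a receptor for lysophosphatidic acid, and Plcb4 a phospholipase C-beta that acts downstream of Gq-coupled receptors. Prss46 belongs to a family of trypsin-like serine proteases. Fgl2 encodes a fibrinogen-like protein known as a membrane prothrombinase and as a secreted immune regulator. Epb41l4b is a member of the band 4.1 family, whose FERM domain links membrane proteins to the cytoskeleton. Tub encodes tubby, a phosphoinositide-binding protein that delivers receptors to cilia and is known for the obesity of tubby mice. Ckm regenerates ATP from phosphocreatine.

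The annotated starts shown are those of the 5 genes that were at or near 0 in the controls of both lines. Sequences are RefSeq windows on GRCm38.p6, from 250 bases before to 50 after an annotated start, and all 8 genes matched, with 9 windows because Plcb4 has a pair of starts. Capitals mark a CArG box with at most 1 mismatch, GGAATG on either strand, or TGANTCA.
Il1r2, chr1:40085843-40086142, plus strand: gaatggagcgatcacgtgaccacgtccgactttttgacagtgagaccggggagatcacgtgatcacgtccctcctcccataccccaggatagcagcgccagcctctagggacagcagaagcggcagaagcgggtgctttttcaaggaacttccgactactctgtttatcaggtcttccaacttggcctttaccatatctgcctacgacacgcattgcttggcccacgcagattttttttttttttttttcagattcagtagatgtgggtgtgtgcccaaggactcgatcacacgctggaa
Prss46, chr9:110844256-110844555, plus strand: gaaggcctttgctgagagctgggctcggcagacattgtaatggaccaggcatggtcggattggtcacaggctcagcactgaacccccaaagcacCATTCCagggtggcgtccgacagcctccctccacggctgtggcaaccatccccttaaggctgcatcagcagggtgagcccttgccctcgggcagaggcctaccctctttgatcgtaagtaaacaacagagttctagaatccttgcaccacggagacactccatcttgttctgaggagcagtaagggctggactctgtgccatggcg
Fgl2, chr5:21372423-21372722, plus strand: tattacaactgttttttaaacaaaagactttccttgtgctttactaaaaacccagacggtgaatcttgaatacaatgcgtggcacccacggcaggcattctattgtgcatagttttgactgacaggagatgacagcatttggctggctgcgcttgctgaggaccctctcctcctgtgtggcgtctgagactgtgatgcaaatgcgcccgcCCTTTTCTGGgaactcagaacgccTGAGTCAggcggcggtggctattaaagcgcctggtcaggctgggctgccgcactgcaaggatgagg
Tub, chr7:109010630-109010929, plus strand: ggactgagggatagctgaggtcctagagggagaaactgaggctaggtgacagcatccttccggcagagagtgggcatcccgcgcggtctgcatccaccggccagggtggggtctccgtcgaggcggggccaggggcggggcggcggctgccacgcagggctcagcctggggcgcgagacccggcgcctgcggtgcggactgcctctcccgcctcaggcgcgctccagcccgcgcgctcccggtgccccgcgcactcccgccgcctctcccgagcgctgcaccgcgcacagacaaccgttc
Ckm, chr7:19410844-19411143, plus strand: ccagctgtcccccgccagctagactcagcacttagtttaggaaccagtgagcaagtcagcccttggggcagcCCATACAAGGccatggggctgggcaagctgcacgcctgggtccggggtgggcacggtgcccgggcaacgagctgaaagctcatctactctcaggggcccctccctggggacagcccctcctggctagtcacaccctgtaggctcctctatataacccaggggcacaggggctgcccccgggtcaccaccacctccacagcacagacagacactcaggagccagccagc

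An exact CArG box was found in 0 of the 9 windows, against 1.63% of all 32851 mouse windows of that length. With at most 1 mismatch it was found in 4 of 9, against 21.1% of all windows. These were CCATACAAGG at position -178 from the start of Ckm, CCTTTTCTGG at -40 in Fgl2, CCTAATAATG at -51 in Lpar4 and CTTTTAAAGG at -221 in the second window of Plcb4. GGAATG, the core bound by TEAD factors, was in 2 of 9 windows on either strand, against 14.7%. Prss46 had it as CATTCC at -156, and Plcb4 had it at -213, where it overlaps the end of the near-CArG match. The AP-1 motif TGANTCA was in 1 of 9 windows, at -16 in Fgl2, against 7.81%. The E-box letters CANNTG, left in lower case, were in 5 of 9 against 72.3%. A match in such a window is a description of its letters and not evidence of binding.

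Libraries held 27607055 to 37116655 recovered reads. A library with 0 reads of a gene could still hold 3, or 0.081 to 0.109 CPM. Values are given as reads or as scaled reads, which are reads divided by the size factor of the library. Without molecular identifiers, the intervals and limits given for reads cover only counting error. Mkl1, which encodes MRTFA, averaged 13728 ± 2454 scaled reads with MRTFA in E0771, against 1349 ± 202 in controls (SD, n = 3 each), but 1205 ± 266 in B16F10 libraries labelled MRTFA against 1015 ± 83.3 (limma, log2 0.22, adjusted p = 0.856). Mkl1 therefore did not check the MRTFA label in B16F10. Acta2, a known MRTF target, had 56336 ± 17915 scaled reads in those libraries against 479 ± 311 in B16F10 controls (limma, log2 7.07, adjusted p = 0.00133). Mkl2, which encodes MRTFB, had 2158 ± 87.9 in E0771 MRTFB libraries against 1344 ± 106 (log2 0.68, adjusted p = 0.0306) and 1886 ± 128 in B16F10 libraries labelled MRTFB against 1501 ± 330 (log2 0.35, adjusted p = 0.503).

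Single libraries stood apart from their groups in some of the values used here, and others are given below. B16F10 MRTFB replicate 3 had 28018 scaled reads of Acta2, against 3856 and 2146 in replicates 1 and 2. Melanocyte markers (7 of 7 measured) summed to 561637 to 757748 scaled reads in B16F10 libraries and to 369 to 636 in E0771. In E0771 the epithelial sum (5 of 7 measured) was 14987 to 17027 with MRTFA, 6013 to 9283 with MRTFB and 5820 to 7901 in controls. Most of it was Krt8, while Epcam averaged 33.5 with MRTFA and 42.1 in controls and Cdh1 6.96 and 4.57. Skeletal muscle markers (10 of 15 measured) summed to 4092 to 5056 with MRTFA in E0771, 1328 to 2114 with MRTFB and 1159 to 1661 in controls. In E0771, 6 of their 8 tested genes were called higher with MRTFA, where 20.3% of all tested genes were. In B16F10 the same sum was 5353 to 5716 in libraries labelled MRTFA, 4477 to 4903 with MRTFB and 4992 to 6897 in controls. Markers of myeloid cells (5 of 12 measured) summed to 133 to 220 with MRTFA in E0771, 201 to 271 with MRTFB and 148 to 335 in controls. The lymphocyte list (1 of 6 measured) stayed at or under 10.49 in all 18 libraries. Neuron markers (3 of 7 measured) summed to 2220 to 2810 with MRTFA in E0771, against 1269 to 2095 in controls. Endothelial and fibroblast markers (5 of 8 measured) summed to 951 to 4419 against 1560 to 3448. The part of any of these cell type markers in the results was not tested.

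In E0771 cells all 8 genes lay at 0 to 7 reads in each control library and at 216 to 3151 reads in each MRTFA library. In this contrast 38.4% of all 13189 tested genes were called (limma, adjusted p under 0.05), 20.3% higher and 18.1% lower. All 8 passed the filter on low values only through their MRTFA libraries. In bulk RNA, fewer cells with a transcript and less of it per cell cannot be told apart.

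**Figure D1:**
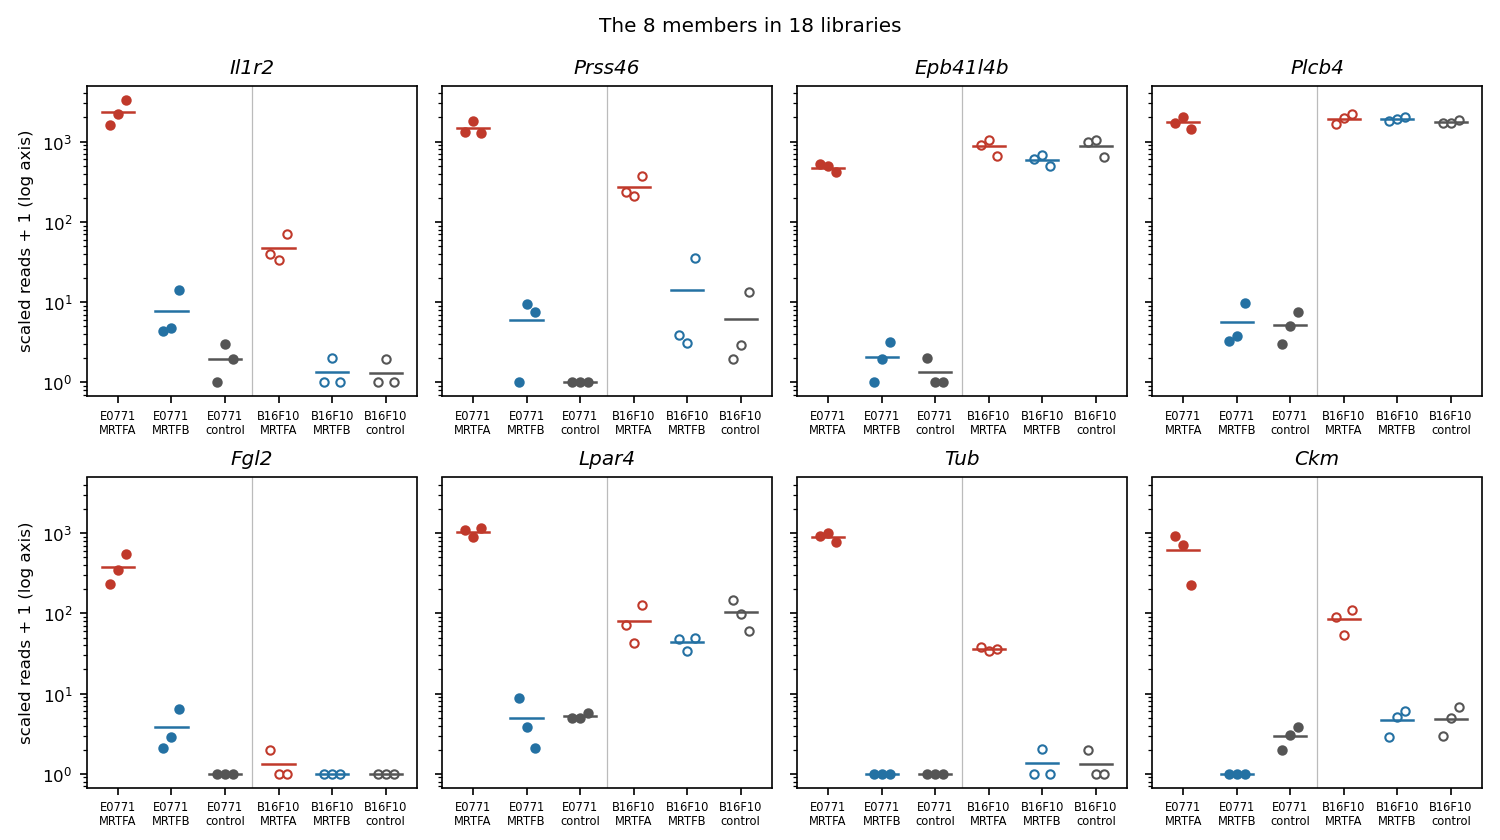
Scaled reads plus 1 of each of the 8 genes on a log axis, in each of the 18 libraries (points) with the group mean (line), MRTFA in red, MRTFB in blue and control in grey, E0771 filled and B16F10 open. Epb41l4b, Plcb4 and Lpar4 lie well above the bottom of the axis in all B16F10 groups, while Il1r2, Prss46, Tub and Ckm are high there in the libraries labelled MRTFA.

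The receptor genes were Il1r2 and Lpar4. Il1r2 (ENSMUSG00000026073.13, GRCm38 chromosome 1, 40074079 to 40125231) had 1613, 2383 and 3151 reads in E0771 MRTFA libraries, 3, 4 and 12 in MRTFB libraries and 0, 2 and 1 in controls. Its mean was 2371 ± 854 scaled reads with MRTFA and 0.98 ± 1.002 in controls, a ratio of 2401 with a 95% counting interval of 821.4 to 11648. Per kilobase of exon it had the highest level of the 8 genes with MRTFA, 1243 scaled reads per kb. Lpar4 (ENSMUSG00000049929.7, chromosome X, 106920625 to 106933900) had 1083, 958 and 1114 reads with MRTFA, 7, 3 and 1 with MRTFB and 4, 4 and 5 in controls. That gave 246 scaled reads per kb with MRTFA and a ratio to controls of 245, with a counting interval of 143 to 460. Lpar4 was among the steadiest of the genes, at a coefficient of variation of 13.4% over the MRTFA libraries.

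Plcb4 (ENSMUSG00000039943.16, chromosome 2, 135659011 to 136014593) had the second most reads in total with MRTFA. It had 1731, 2182 and 1382 reads in MRTFA libraries, 2, 3 and 8 with MRTFB and 2, 4 and 7 in controls. The MRTFB and control libraries overlapped, and the ratio of MRTFA to control was 411 (counting interval 240 to 772). Because the Plcb4 exons add up to 8970 bases, its level per kilobase, 193, lay below those of Il1r2, Prss46, Lpar4 and Ckm.

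Prss46 and Fgl2, the protease gene and the fibrinogen-like gene, had 0 reads in all 3 E0771 controls. Prss46 (ENSMUSG00000049719.14, chromosome 9, 110844506 to 110856522) had 1311, 1942 and 1230 reads with MRTFA and 0, 9 and 6 with MRTFB. With the control group set to 3 reads in all, MRTFA libraries were at least 1506-fold higher. Its level per kilobase with MRTFA, 1088, was close to that of Il1r2. Fgl2 (ENSMUSG00000039899.5, chromosome 5, 21372642 to 21378374) had 235, 374 and 518 reads with MRTFA and 1, 2 and 5 with MRTFB, and was at least 379-fold higher with MRTFA than controls. It had the lowest mean of the 8 with MRTFA, 374 ± 155 scaled reads. Ccdc146 overlaps Fgl2 on the opposite strand but shares no exon sequence with it.

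Epb41l4b and Tub are linked to the membrane and its lipids. Epb41l4b (ENSMUSG00000028434.12, chromosome 4, 56991972 to 57143437, minus strand) had 520, 530 and 395 reads with MRTFA, 0, 1 and 2 with MRTFB and 1, 0 and 0 in controls. The ratio of MRTFA to control rests on 1 control read, at 1457 with a counting interval of 261 to 57572, and the level per kilobase, 53.5, was the lowest of the 8. Tub (ENSMUSG00000031028.13, chromosome 7, 108950338 to 109034460) had 923, 1073 and 747 reads with MRTFA and 0 in all 6 other E0771 libraries. With MRTFA it was at least 922-fold higher than controls. Ric3 shares exon sequence with Tub on the opposite strand and had 18.1 ± 3.003 scaled reads with MRTFA against 13.2 ± 8.41 in controls. Since the strandedness of the counting is not given, reads in the exon sequence that such a pair shares cannot be told apart.

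Ckm (ENSMUSG00000030399.1, chromosome 7, 19404776 to 19422841) varied most between the MRTFA libraries. It had 926, 761 and 216 reads with MRTFA, 0, 0 and 0 with MRTFB and 1, 2 and 3 in controls. The ratio of MRTFA to control was 320, with a counting interval of 147 to 872, and the level per kilobase with MRTFA was 212. A930016O22Rik, an antisense gene that shares exon sequence with Ckm, had 12, 9 and 4 reads with MRTFA and 0 in all 6 other E0771 libraries.

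The rule had no stated numerical limit. Among the 8, the highest control mean was 4.24 scaled reads (Lpar4) and the lowest MRTFA mean 374 (Fgl2). Counting the 8, 39 genes of the table were at least as low in controls and as high with MRTFA in E0771. Just outside lay Ntng1, with 358 scaled reads with MRTFA and 0 in controls, and Pilra, with 1358 and 4.54.

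The 8 genes did not move together within the E0771 MRTFA group. Relative to the mean of the 3 libraries, Il1r2 was at 0.678, 0.934 and 1.39 in replicates 1, 2 and 3, and Fgl2 at 0.625, 0.928 and 1.45. Ckm had the opposite order, at 1.49, 1.14 and 0.365, so replicate 3 was its lowest library by far. Actc1, cardiac actin, was also lowest in replicate 3, at 1.28, 1.15 and 0.570, and so was Acta1, skeletal actin, at 1.14, 1.10 and 0.753. Il1a, the gene of a ligand that the Il1r2 protein binds, had the order of Il1r2, at 0.720, 0.925 and 1.36. The highest library exceeded the lowest 4.09-fold for Ckm, 2.31-fold for Fgl2, 2.05-fold for Il1r2 and 1.25-fold to 1.40-fold for the other 5 genes. Mkl1 itself differed 1.36-fold between these libraries. With 3 libraries, no correlation is given.

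**Figure D2:**
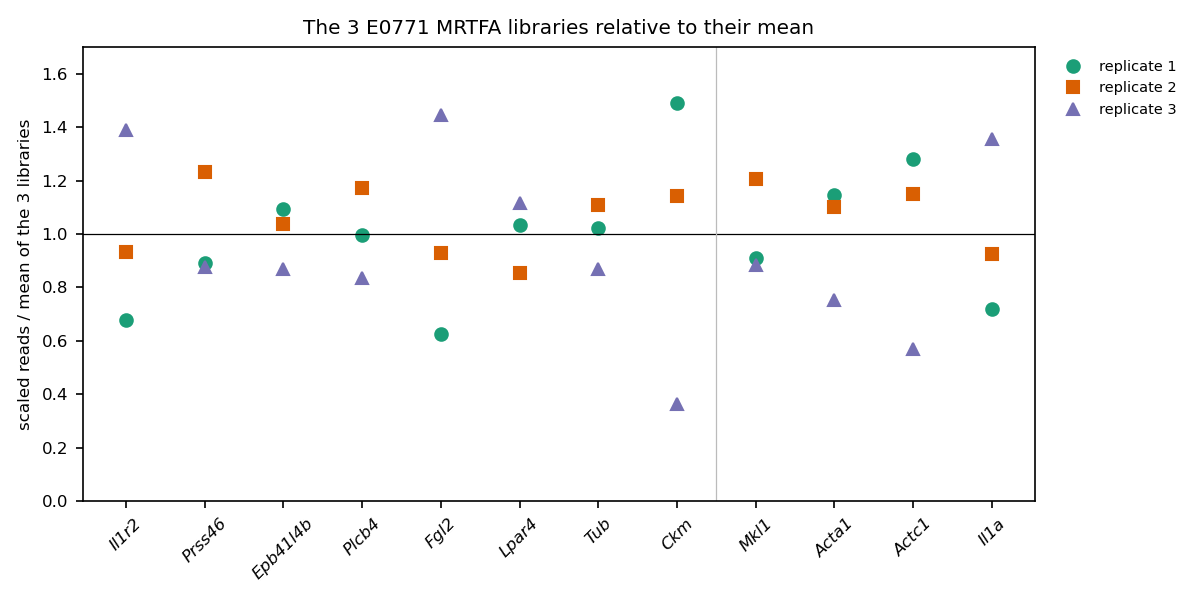
Scaled reads in each of the 3 E0771 MRTFA libraries divided by their mean (1.0, line), for the 8 genes and, right of the grey line, for Mkl1, Acta1, Actc1 and Il1a. Replicate 3 is the highest library for Il1r2 (1.39), Fgl2 (1.45) and Il1a (1.36) and the lowest for Ckm (0.365) and Actc1 (0.570).

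With MRTFB in E0771 cells the 8 genes had 0 to 12 reads in each library, against 0 to 7 in each control library. These controls were used to pick the genes as near 0, and all 8 entered the fit through their E0771 MRTFA libraries, so the MRTFB values are a description and nothing is read from the test. By limma 0 of 8 were called, by edgeR 0 and by DESeq2 0, where these tools called 0.144%, 0.114% and 0.249% of all genes tested. An unadjusted p under 0.05 was reached by 4 of 8 in limma and DESeq2 and by 3 of 8 in edgeR. Over all genes it was reached by 335 of 13189 in limma, 309 of 13189 in edgeR and 311 of 18909 in DESeq2. Il1r2 had 19 reads over the 3 MRTFB libraries against 3 in controls, Prss46 15 against 0 and Fgl2 8 against 0, whereas Ckm had 0 against 6. Plcb4 had 13 reads in either group, a ratio of 1.07 with a counting interval of 0.458 to 2.51, and Lpar4 had 11 against 13, a ratio of 0.907 with a counting interval of 0.368 to 2.19. Tub had 0 reads in both groups, so no fold is given. For comparison, Acta2 rose by 1.83 on the log2 scale with MRTFB in E0771 (adjusted p = 0.00116).

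In B16F10 controls 5 of the 8 genes were at or near 0 and 3 were expressed. The rule for choosing them named only E0771 levels, but earlier results of these data were known when they were chosen. Il1r2, Tub, Fgl2, Ckm and Prss46 had 0 to 6 reads in each control library, except 13 reads of Prss46 in replicate 3. Plcb4 had 1740 to 1947 reads, Epb41l4b 678 to 1074 and Lpar4 63 to 152. Plcb4 stood at 1732 ± 291 scaled reads in E0771 with MRTFA and at 1747 ± 96.3 in B16F10 controls, a ratio of 0.997 with a counting interval of 0.960 to 1.04. The E0771 MRTFA mean of Epb41l4b was 0.536 times the B16F10 control mean, and that of Lpar4 was 10.2 times.

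Of the 8 genes, 4 (Il1r2, Prss46, Tub and Ckm) rose in B16F10 libraries labelled MRTFA against control, where 1.34% of the 13517 tested genes were called higher and 0.207% lower by limma. None of the 8 was called lower. Each of the 4 passed the filter on low values only through its MRTFA libraries, where it was high, so the count of 4 is a description and is not read against these shares. Without the filter, the adjusted p of the 4 genes was 0.00128 to 0.0480. Il1r2 had 39, 31 and 72 reads with MRTFA and 0, 1 and 0 in controls, a ratio of 147 with a counting interval of 26.0 to 5849 (log2 5.17, SE 0.50, adjusted p = 4.44e-04). Tub had 37, 32 and 37 reads with MRTFA and 1, 0 and 0 in controls, a ratio of 110 with a counting interval of 19.3 to 4377 (log2 4.85, SE 0.46, adjusted p = 4.40e-04). In both genes the MRTFA and control libraries lay far apart, and the size of the ratio depends on 1 control read.

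Prss46 had 235, 201 and 386 reads in B16F10 libraries labelled MRTFA and 1, 2 and 13 in controls. The ratio was 53.2 (counting interval 32.6 to 93.5) and the fitted log2 difference 5.95 (SE 0.92, limma adjusted p = 0.00828). Control replicate 3 held 13 of the 16 control reads, and without it the log2 difference was 6.78. Ckm had 88, 51 and 115 reads with MRTFA and 2, 4 and 6 in controls, a ratio of 21.9 with a counting interval of 12.3 to 43.0 (limma log2 4.15, SE 0.44, adjusted p = 6.97e-04). Its antisense neighbour A930016O22Rik had 0, 4 and 1 reads with MRTFA and 1, 2 and 0 in controls. All 4 genes were also called higher by edgeR (1.33% of all genes), by DESeq2 (1.6%), with the replicate block (3.98%) and without any single one of the 6 libraries. The genes passed the filter used for limma and edgeR only through the libraries labelled MRTFA, so these repeated calls are a description too.

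In B16F10 these 4 genes were, even in the libraries labelled MRTFA, well below their E0771 MRTFA level. The E0771 MRTFA mean was 49.8 times the B16F10 MRTFA mean for Il1r2, 25.6 times for Tub, 7.42 times for Ckm and 5.40 times for Prss46. Mkl1 was 13728 ± 2454 scaled reads in E0771 MRTFA libraries and 1205 ± 266 in the B16F10 libraries labelled MRTFA, and Acta2 was 735273 ± 70888 and 56336 ± 17915. The genes were chosen for being high in E0771, so no test is given for this difference between lines.

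Fgl2 had 1, 0 and 0 reads in B16F10 libraries labelled MRTFA and 0 in all 6 other B16F10 libraries, so it was not tested and no fold is given. In E0771 with MRTFA its 3 libraries held 1127 reads.

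**Figure D3:**
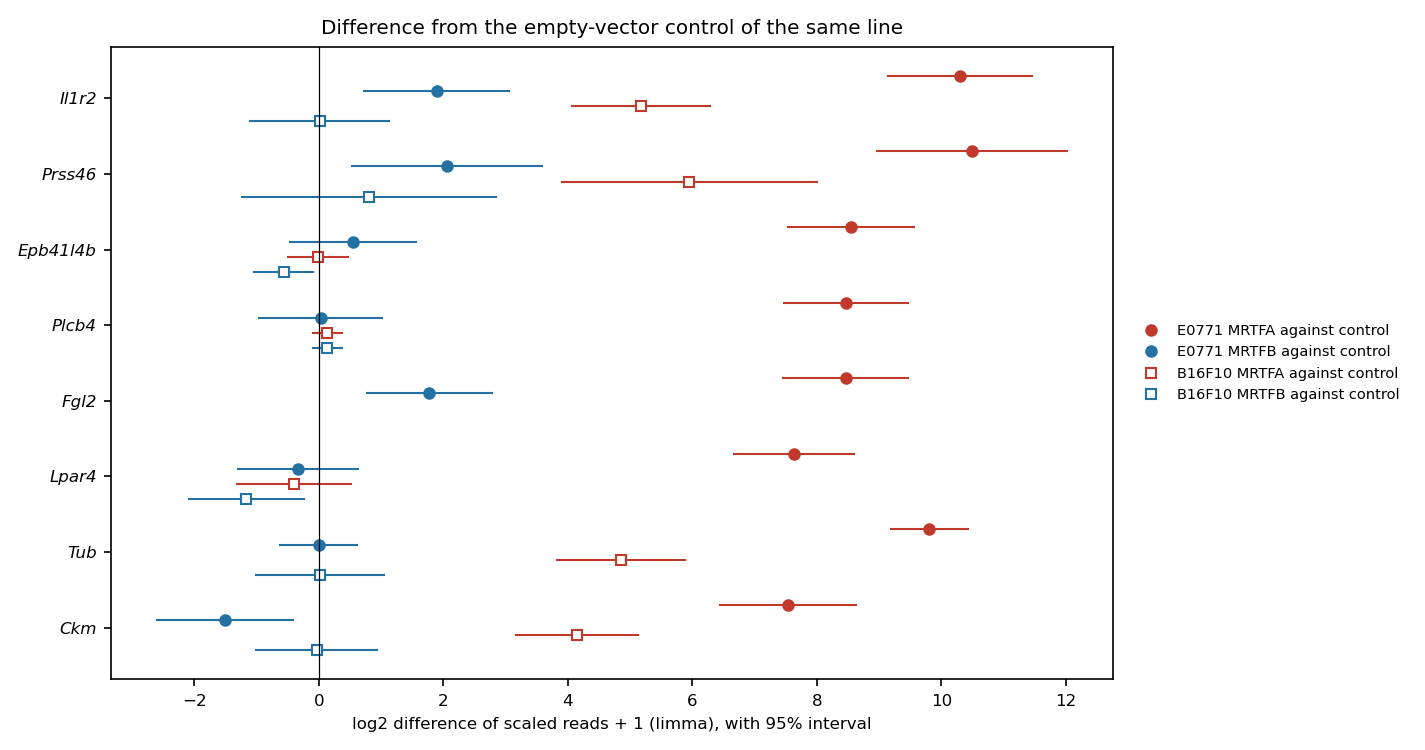
Fitted log2 difference of scaled reads plus 1 from the control of the same line for each of the 8 genes, with the 95% interval of limma (line), E0771 as filled circles and B16F10 as open squares, MRTFA in red and MRTFB in blue. The E0771 MRTFA and control values were used to pick the genes, so both E0771 differences are a description. In B16F10 the MRTFA values of Il1r2, Prss46, Tub and Ckm lie between 4.15 and 5.95, and those of Epb41l4b, Plcb4 and Lpar4 between -0.40 and 0.14.

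The 3 genes with at least 63 reads in every B16F10 control library, Epb41l4b, Plcb4 and Lpar4, did not pass the test with MRTFA there. Epb41l4b had 902, 1024 and 699 reads in libraries labelled MRTFA and 1014, 1074 and 678 in controls, and the groups overlapped (limma log2 -0.01, 95% interval -0.49 to 0.46, adjusted p = 0.993). Plcb4 had 1641, 1888 and 2303 reads with MRTFA and 1756, 1740 and 1947 in controls (log2 0.14, 95% interval -0.10 to 0.37, adjusted p = 0.836). A Plcb4 increase above 1.29-fold lay outside that interval. Lpar4 had 71, 40 and 132 reads with MRTFA and 152, 101 and 63 in controls (log2 -0.40, 95% interval -1.32 to 0.52, adjusted p = 0.917). Its interval is wide and leaves room for a fold from 0.401 to 1.43. With the replicate block the 95% intervals were -0.19 to 0.16 for Epb41l4b, -0.008 to 0.285 for Plcb4 and -1.18 to 0.38 for Lpar4. None of these genes was called with the block.

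With MRTFB in B16F10 cells 0 of the 8 genes were called by limma, edgeR or DESeq2, against 0.126%, 0.126% and 1.29% of all genes tested. By each tool 2 of the 7 tested had an unadjusted p under 0.05, Epb41l4b and Lpar4, both with lower means. Over all genes, 1199 of 13517 had it in limma, 1205 of 13517 in edgeR and 1251 of 18909 in DESeq2. Epb41l4b had 629, 657 and 500 reads with MRTFB, against the 1014, 1074 and 678 reads of controls, a ratio of 0.667 (limma log2 -0.56, 95% interval -1.04 to -0.09, adjusted p = 0.453). The scaled values overlapped, but equal-numbered libraries deviated together. With replicate number as a block, which called 2.83% of genes lower, Epb41l4b was called lower (adjusted p = 0.00547). Lpar4 had 49, 32 and 48 reads with MRTFB, all below the 152, 101 and 63 of controls (log2 -1.16, 95% interval -2.08 to -0.24, adjusted p = 0.413, and 0.0907 with the block). Prss46 had 3, 2 and 34 reads with MRTFB, the 34 in replicate 3, which was also the highest library for Acta2. The other genes were at 5 reads or fewer in each MRTFB library except Plcb4, with 1919, 1832 and 2032. Of 8 MRTF genes and known targets read as reference, limma called 0 with MRTFB in B16F10 (median log2 1.67). With MRTFB in E0771 it called 4 of them higher. By this fit no called reference gene checks the MRTFB label in B16F10, so the uncalled genes are not read as unresponsive to MRTFB. Without a call, Acta1 had 138, 57 and 595 reads with MRTFB there, against 5, 7 and 18 in controls. Tagln had 661, 442 and 4699 against 58, 45 and 278. Libraries of Acta1, Acta2, Actc1 and Tagln did not overlap between these groups, while those of Mkl1 and Mkl2 did.

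Set against each other in B16F10, libraries labelled MRTFB had lower levels than those labelled MRTFA for the same 4 genes that had risen with MRTFA, where 1.08% of tested genes were called lower. Il1r2, Tub and Ckm had 10 or more scaled reads in no B16F10 library outside MRTFA, so they and Prss46 entered this test through the libraries where they were high, and the count of 4 is not read against that share. The limma log2 differences were -5.16 for Il1r2 (adjusted p = 8.31e-04), -4.84 for Tub (adjusted p = 7.96e-04), -4.18 for Ckm (adjusted p = 0.00106) and -5.14 for Prss46 (adjusted p = 0.0245). These share the MRTFA libraries with the comparison to control. The Prss46 call is the least firm of them. It was lost when any MRTFA library, or MRTFB replicate 1 or 2, was left out (adjusted p = 0.0852 to 0.137), and without MRTFB replicate 3 it was -6.26 (adjusted p = 0.00101). With the replicate block, which called 2.56% of genes lower, Epb41l4b was also lower with MRTFB (log2 -0.55, adjusted p = 0.00269, against 0.867 without the block).

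Genes of the same families or pathways as the 8 were read in the same fits, with the 8 left out. In E0771 MRTFA libraries against control, the shares called over all tested genes are 20.3% higher and 18.1% lower, and the median log2 difference over all genes is -0.02. Among relatives with a control mean as low as those of the 8, the highest with MRTFA was Il1a, at 169 ± 54.8 scaled reads. Relatives this low in controls, such as Il1a, could pass the filter on low values through libraries where they were high. The counts of these lists with MRTFA in E0771 are therefore descriptions and are not read against the shares over all genes.

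**Figure D4:**
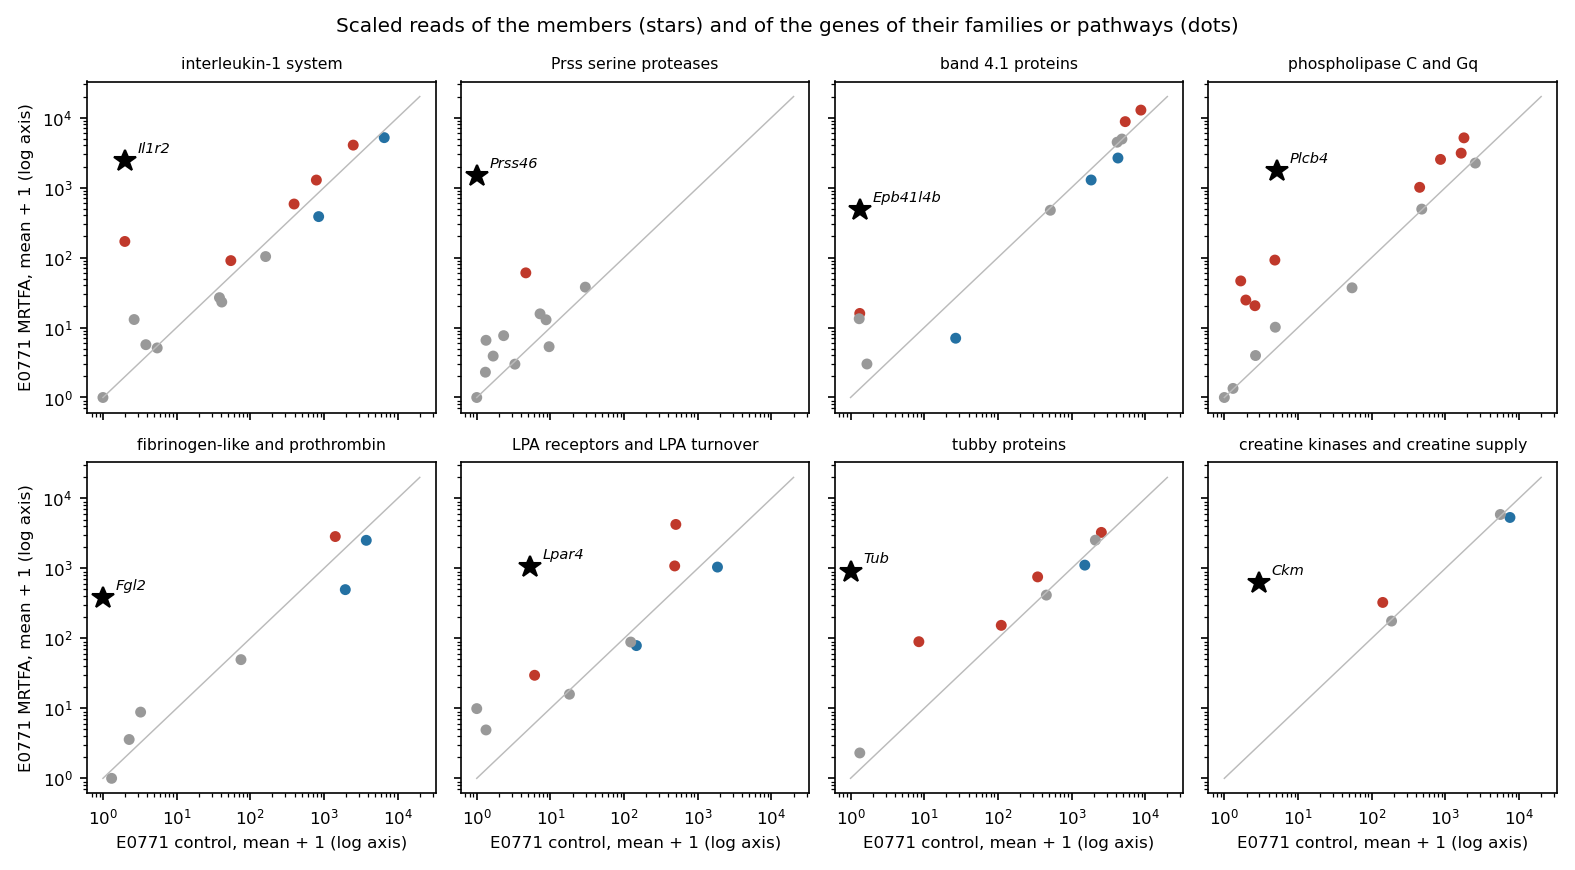
Mean scaled reads plus 1 in E0771 MRTFA libraries (vertical, log axis) against E0771 controls (horizontal, log axis) for the 8 genes (stars) and the measured genes of their families or pathways (dots, red called higher, blue called lower, grey not called or not tested by limma). The grey line marks equal values, and each star lies far above it.

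Of the interleukin-1 system 10 of 14 measured genes could be tested in E0771, and with MRTFA 5 rose and 2 fell (median log2 0.10). Il1a, a ligand, had 122, 168 and 219 reads with MRTFA and 2, 0 and 1 in controls (limma log2 6.51). The signalling receptor Il1r1 had 89.4 ± 8.74 scaled reads with MRTFA against 53.5 ± 15.4 (log2 0.76, adjusted p = 0.0227), and its accessory chain Il1rap 4045 ± 696 against 2497 ± 428 (log2 0.70, adjusted p = 0.00377). The adaptor Myd88 and the kinase Irak4 rose by 0.70 and 0.56, while Sigirr, which restrains the pathway, fell by 1.13 and Irak1 fell by 0.35. In B16F10 Il1a had 3, 0 and 0 reads in libraries labelled MRTFA, against 2, 1 and 0 in controls.

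The phospholipase C and Gq list had the highest count of increases among these lists in E0771 with MRTFA, where 8 of 11 tested genes rose and the others did not pass (median log2 1.53). Plcb3, the most abundant of its phospholipases, had 5137 ± 150 scaled reads with MRTFA against 1790 ± 203 (log2 1.53), and Plcb1 had 45.3 ± 5.55 against 0.67 ± 0.58 (log2 4.86). Plcd1, Plcd3, Plcg2, Plch1 and Plch2 rose by 1.18, 1.57, 3.04, 3.73 and 4.20. Gnaq, the G protein subunit that activates phospholipase C-beta, rose by 0.91 (3102 ± 397 against 1640 ± 8.80). Gna11, its close relative, did not pass (log2 0.03, adjusted p = 0.909). In B16F10 Plcb3 had 2090 ± 299 scaled reads in libraries labelled MRTFA, against 1924 ± 202 in controls (log2 0.12, adjusted p = 0.905).

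Among genes for lysophosphatidic acid receptors and turnover 3 of 7 tested rose and 2 fell in E0771 with MRTFA (median log2 0.32). Ppap2a, a lipid phosphatase that degrades lysophosphatidic acid, had 4251 ± 336 scaled reads with MRTFA against 503 ± 53.7 (log2 3.08). It also rose in B16F10 libraries labelled MRTFA, at 712 ± 100 against 385 ± 44.9 (log2 0.88, adjusted p = 0.00756). The receptor genes Lpar6 and Lpar5 rose by 1.16 and 2.55 in E0771, Lpar2 fell by 0.90 and the phosphatase gene Ppap2c fell by 0.82. Lpar1 had 8.92 ± 2.78 scaled reads with MRTFA and 0 in E0771 controls, under the filter on low values.

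The band 4.1, Prss and tubby lists each had fewer increases than the phospholipase C and Gq list in E0771 with MRTFA. Of the band 4.1 proteins 3 of 9 rose and 3 fell (median log2 0.03). Epb41l2, the most abundant member, rose by 0.55, Frmd4a by 0.71 and Epb41l3 by 3.63 (14.9 ± 3.53 against 0.33 ± 0.58), while Epb41, Epb41l4a and Frmd4b fell by 0.69, 0.54 and 1.89. Of the Prss proteases 1 of 4 rose (median log2 0.92), namely Prss27 at 59.4 ± 34.8 against 3.64 ± 2.16 (log2 3.58). In the tubby list, which includes ciliary transport genes, 4 of 7 rose and 1 fell (median log2 0.36). Tulp2 had 88.7 ± 22.0 against 7.46 ± 2.21 (log2 3.41), Ift122 rose by 1.14, Wdr19 by 0.47 and Tulp3 by 0.36, and Ttc21b fell by 0.45.

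In the fibrinogen-like and prothrombin list 1 of 4 rose and 2 fell (median log2 -0.59). F3, tissue factor, rose by 0.997 on the log2 scale, to 2854 ± 370 scaled reads, against 1425 ± 122 in controls. F2rl1 and F2r, protease-activated receptors, fell by 1.97 and 0.58. In the creatine list 1 of 4 rose and 1 fell (median log2 -0.01). Ckb, the brain-type creatine kinase, had 325 ± 71.4 against 140 ± 13.6 (log2 1.19), and Gatm, which makes the creatine precursor, fell by 0.51. Of the 53 family genes tested in B16F10, limma, edgeR and DESeq2 each called 1 with the MRTFA label, Ppap2a, where they called 1.55%, 1.55% and 2.17% of all genes, and 5 had an unadjusted p under 0.05 by each. With the replicate block 7 were called, against 6.33% of all genes. With MRTFB in B16F10 limma and edgeR called 0 of 53 and DESeq2 called 2, Ppap2b and Prss12, against 0.126%, 0.126% and 1.29% of all genes, while 9, 8 and 9 had an unadjusted p under 0.05 and the block called 5, against 4.46% of all genes. With MRTFB in E0771 limma and edgeR called 0 of 56 and DESeq2 and the block 1, F3, against 0.144%, 0.114%, 0.249% and 0.25% of all genes, while 3 had an unadjusted p under 0.05 by each tool. Over all genes, limma gave an unadjusted p under 0.05 to 1272 of 13517 with the MRTFA label in B16F10. With MRTFB it did so for 1199 of 13517 in B16F10 and 335 of 13189 in E0771. In the same order the counts were 1274, 1205 and 309 by edgeR, and 1387, 1251 and 311 of 18909 by DESeq2.

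The nearest gene on each side of each of the 8 was read as context. Of these 16 neighbours, 11 could be tested in E0771, and with MRTFA 6 rose and 1 fell, where the shares over all genes were 20.3% for higher and 18.1% for lower calls. A630033H20Rik and Gm5127, which rose, passed the filter only through their E0771 MRTFA libraries. The count of neighbours is therefore a description and is not read against these shares. A630033H20Rik, 215027 bases from Lpar4, had 403, 521 and 756 reads with MRTFA and 0 in all 6 other E0771 libraries. In B16F10 it had 71, 42 and 73 reads in libraries labelled MRTFA and 1, 0 and 0 in controls (limma log2 5.61, adjusted p = 4.40e-04), whereas Lpar4 itself was not called there. It was the one neighbour called among 10 tested in B16F10, where 1.34% of all tested genes were called higher, and it passed the filter through its MRTFA libraries. Gm5127, on the other side of Lpar4, had 11, 20 and 10 reads with MRTFA and 0 in all 6 other E0771 libraries.

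Ckm has close neighbours, Klc3 at 672 bases and Mark4 at 1934 bases. In E0771 with MRTFA, Mark4 had 927 ± 107 scaled reads against 450 ± 57.0 (limma log2 1.04, adjusted p = 7.00e-04) and Klc3 had 115 ± 30.9 against 49.95 ± 23.2 (log2 1.28, adjusted p = 0.0456). In B16F10 with the MRTFA label neither passed (log2 -0.19, adjusted p = 0.893 for Mark4, and log2 0.02, adjusted p = 0.993 for Klc3). Prss50, 1445 bases from Prss46, averaged 5.57 scaled reads with MRTFA and 0.34 in E0771 controls. Next to Il1r2 lie Map4k4 and Il1r1, which rose by 0.27 and 0.76 in E0771 with MRTFA. Fam185a, next to Fgl2, fell by 0.70. Eif3f and Lmo1, on the sides of Tub, did not pass the test with MRTFA in either line (adjusted p = 0.114 to 0.857).

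Over the 18 libraries, the genes most like the mean log2 profile of the 8 were Trpv2 (Pearson r 0.992), Ccna1 (0.991), Gm8773 (0.981), Rhoj (0.979) and Kank1 (0.978). Libraries of 1 group share their treatment, so these values describe the order of the groups and carry no p. Ccna1, cyclin A1, had a profile of the silent kind, with means of 757, 1.06 and 0 scaled reads in E0771 MRTFA, MRTFB and control and 124, 12.6 and 13.2 in the same groups of B16F10. Trpv2, a cation channel gene, had 6837, 597 and 462 in E0771 and 2111, 1118 and 1046 in B16F10. Within the 8, each of which is part of the mean profile, Ckm followed that profile best (r 0.9505) and Epb41l4b least (0.726). Epb41l4b and Plcb4 were close to each other (r 0.990), and so were Il1r2 and Tub (0.958), while Epb41l4b and Fgl2 had the lowest r of any pair (0.155).

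Of the 31 other genes as low in E0771 controls and as high with MRTFA there, 22 also had a B16F10 control mean of at most 4.24 scaled reads and 9 did not. Among those 22, 15 were called higher in B16F10 libraries labelled MRTFA, 1 was tested and not called, and the other genes failed the filter on low values. Genes this low in controls pass the filter where they are high, so the count describes them and supports nothing further.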

How the data were processed

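RNA was measured in 18 libraries, 3 in each of 6 groups, which were assigned from the titles. The submitters' processing notes name cutadapt 1.6, STAR 2.5.0a, HTSeq 0.5.3, DESeq and the build mm10. Annotation release, counting mode and strand setting were not stated. The authors deposited a signal for each gene, namely reads over the size factor of the library. All of it (100% of values) came out as whole reads within 0.001. On these recovered reads edgeR called 15, 210, 17 and 139 genes for MRTFB in E0771, MRTFA in B16F10 and MRTFB in B16F10, each set against its control, and for MRTFB set against MRTFA in B16F10.

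The 8 genes, the gene lists and the marker lists were chosen with earlier results of these data known. limma 3.58.1 with a trend was run on log2(scaled reads + 1). Genes entered with 10 or more scaled reads in 3 or more of the 9 libraries of a line, which were fitted together. Calls are two-sided, at a Benjamini-Hochberg adjusted p under 0.05 over all tested genes, and "rose" or "fell" is written of called genes. This scale understates the change of low genes, so ratios of scaled values are given too, with exact binomial 95% counting intervals. Against 0 reads, the fold was computed with 3 reads in the whole group. Alternatives were edgeR 4.0.16, DESeq2 1.42.0, TMM scaling, pseudocounts, no filter, the replicate block, the 6 libraries compared alone, and leaving out libraries. The fits were tested on simulated data, with changes planted only in genes well above 0 in the group compared against. That test therefore does not cover genes near 0. Replicates were checked for being 1 library deposited again, which none was.

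Loci and neighbours come from GENCODE M21 (GRCm38), which held 18827 of the 18909 identifiers. Levels are compared between genes per kilobase of exon, or ranked by reads or scaled reads. Ranks by reads or scaled reads, such as the most abundant of a list, also depend on gene length. The named genes were the 8, reference MRTF targets, abundant or called members of the family lists, the nearest neighbours, and the 5 genes most correlated with the mean profile. Acta1 and Il1a among the MRTFA libraries, Gna11, Lpar1, and the genes called for the families by DESeq2 alone were named after their values were seen.

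For pairing, each library's deviation from its group mean was correlated across genes with that of the equal-numbered library. These correlations were 0.353 to 0.634 in B16F10 and 0.459 to 0.553 for MRTFB in E0771. Those comparisons were read as paired from the data, and blocked values stand beside the others where a call changes. Replicate 1 of E0771 MRTFA reached 0.084 with its control, so the numbers were not read as pairs there.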

Additional observations from a re-analysis of the deposited data

How the results depend on the processing

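Of 435 values of single genes under the alternatives, 399 kept their direction and their side of the threshold. The calls of Il1r2, Prss46, Tub and Ckm with MRTFA in B16F10 were kept under every alternative run. These alternatives reuse the same libraries, so the repeated calls are a description. The count of all genes called was less stable. For MRTFB in E0771 (19 genes) it was 3 without the filter on low values, 46 by DESeq2, 33 with the replicate block, 2 from the 6 libraries alone and 7 to 15 with 1 library left out. For MRTFA in B16F10 (209 genes) it was 364 by DESeq2, 855 with the block and 122 to 324 with 1 library left out. For MRTFB in B16F10 (17 genes) it was 11 with TMM scaling, 175 by DESeq2, 603 with the block, 6 from the 6 libraries alone and 0 to 131 with 1 library left out. For MRTFB against MRTFA in B16F10 (148 genes) it was 359 with the block and 84 to 213 with 1 library left out.

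Leaving out the libraries numbered 3 together was chosen after seeing the data. It gave 7 genes for MRTFB in E0771, and 358 for MRTFA and 210 for MRTFB in B16F10. Among the 8 genes, the number called for MRTFB in E0771 was 0 to 1 with 1 library left out (Prss46, without MRTFB replicate 1), which is not read as a result because the controls were used to pick the genes. For MRTFB in B16F10 it was 1 with the block, and 1 without the libraries numbered 3 (Epb41l4b, log2 -0.66, adjusted p = 0.0448). Without the filter, the Prss46 difference between MRTFB and MRTFA in B16F10 was not called (adjusted p = 0.105).

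Values that changed sign were all uncalled. Without the libraries numbered 3, they were -0.024 (Epb41l4b), -0.14 (Plcb4) and 0.22 (Lpar4) for MRTFB in E0771, 0.031 (Ckm) for MRTFB in B16F10 and 0.051 (Plcb4) for MRTFB against MRTFA in B16F10, where TMM scaling gave 0.0028. With 1 library left out, the ranges of log2 differences that include a change of sign were as follows. For MRTFB in E0771, Plcb4 ranged from -0.46 to 0.35 and Lpar4 from -0.88 to 0.16. Epb41l4b ranged from -0.23 to 0.17 for MRTFA in B16F10. For MRTFB in B16F10, Il1r2 ranged from -0.33 to 0.34, Prss46 from -0.31 to 1.63, Tub from -0.32 to 0.34 and Ckm from -0.36 to 0.28. For MRTFB against MRTFA in B16F10, Plcb4 ranged from -0.11 to 0.094. The cause of these changes was not tested. With 0 to 13 reads per control library, the ratios of the low genes rest on few reads, and a pseudocount of 10 lowered the descriptive E0771 MRTFA differences to 5.18 to 7.70 on the log2 scale.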
